A study of Homo sapiens with 18 samples.

Results

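The WT comparison of hematopoietic differentiation set the 3 WT D16 libraries against the 3 WT D0 libraries, 6 of the 18 RNA-seq libraries of the series. Both groups were unedited H1 cells, an established human embryonic stem cell line, and neither carried a USB1 change. D16 cells are labelled hematopoietic progenitors, which the study describes as CD34+ CD45+. They came from 1 serum-free protocol in which mesoderm was induced with BMP4, bFGF, CHIR99021 (a GSK3 inhibitor) and SB-431542 (an inhibitor of activin and nodal receptors), and CD34+ CD43- cells were then sorted and aggregated with cytokines and growth factors that included IL-3, SCF, IL-6, IL-11, IGF1, EPO, VEGF, bFGF, BMP4, FLT3L and SHH. D0 cells are undifferentiated stem cells of the same line, before this protocol. The medium for stem cells on feeder layers also held bFGF. The other 12 libraries are WT cells at D30 and cells with a mutation of USB1, a 3' to 5' RNA exonuclease, at each of the 3 days. All genes of the deposited tables were joined by their Ensembl identifiers, and the members are the libraries whose labels give WT at D16 or D0. As the model is 1 cell line in culture, the replicates are not donors, and the sources used here do not say whether they were separate cultures.

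Pluripotent stem cells keep themselves undifferentiated through a small network of transcription factors led by POU5F1 (OCT4), NANOG and SOX2, supported by FGF and nodal signals, and they grow as a tight epithelium. In the definitive program, mesoderm gives rise to hemogenic endothelium, from which RUNX1, GATA2 and TAL1 start blood formation. Lineage factors such as GATA1, SPI1 (PU.1) and the C/EBP proteins then direct progenitors towards red cells, platelets, mast cells, granulocytes and monocytes. Eosinophils, basophils and neutrophils fill their granules with different toxic proteins and enzymes, which are made in immature cells, and the receptors of the cytokines IL-3, IL-5 and GM-CSF share the chain encoded by CSF2RB.

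Total expected counts were 9043538, 17536723 and 14618929 in the WT D16 libraries, against 11879621, 13699016 and 8901471 in the WT D0 libraries. The 20 most abundant genes of a library held 11.9 to 13.6% of its counts at D16, against 6.38 to 7.05% at D0. Of 35168 genes, 15623 had enough counts to be tested with edgeR's quasi-likelihood test. A gene was called when its Benjamini-Hochberg adjusted p was under 0.1 and its change over 2-fold, and 7900 genes, or 50.6% of those tested, were called. Of the called genes, 3799 (24.3% of those tested) were higher at D16 and 4101 (26.2%) were lower, and the median log2 change of all genes tested was -0.02. The adjusted p alone was passed by 12275 genes (78.6%). The groups did not overlap for 77.5% of the genes tested. At over 8-fold, 1347 genes were higher and 1750 were lower. At over 256-fold, 345 were higher and 274 were lower. No count was found in any D0 library for 175 genes called higher, and none in any D16 library for 270 genes called lower. Unless stated otherwise, levels are CPM, counts scaled to TMM-adjusted library totals of 1000000, which suit the comparison of 1 gene between days, and changes are log2 differences of D16 minus D0 with their standard error (SE). In bulk RNA, a change in the share of cells that use a gene and a change in the amount per cell cannot be told apart, and day and any sequencing batch cannot be told apart either.

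**Figure D1:**
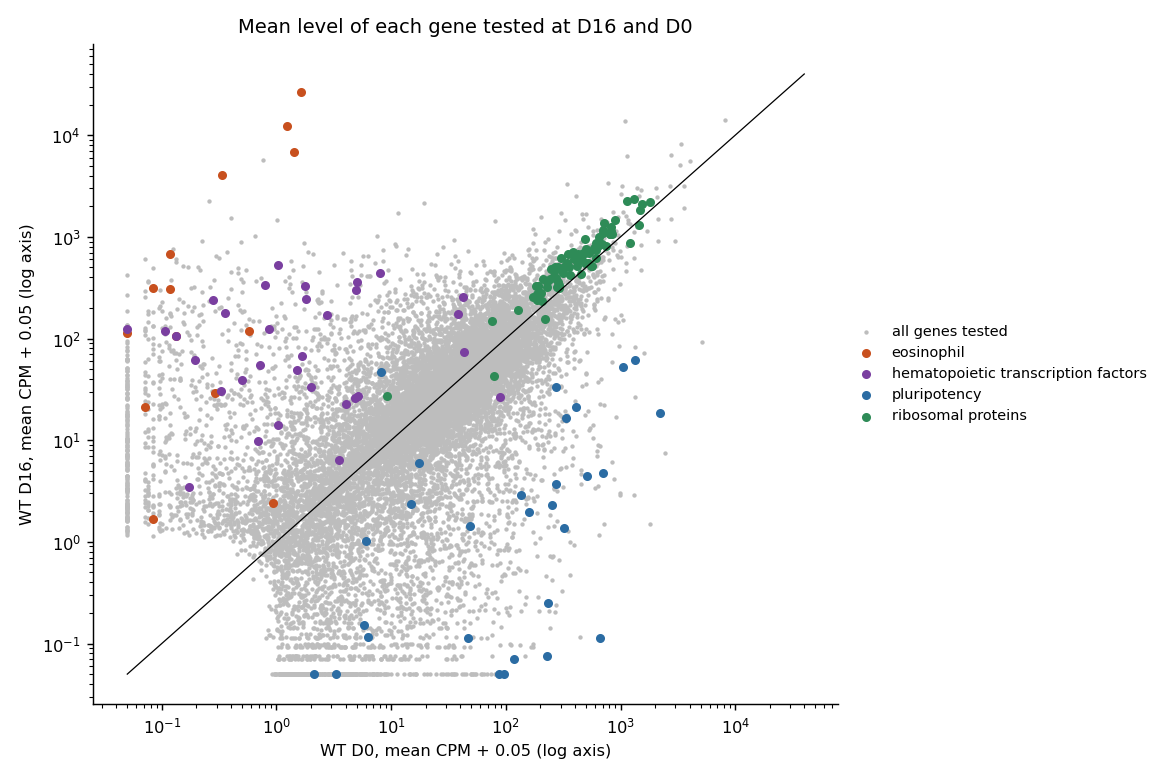
Mean CPM of each gene tested in the 3 WT D16 libraries (vertical) against the 3 WT D0 libraries (horizontal), both on log axes after adding 0.05, with 4 gene lists in colour. The eosinophil genes and the blood transcription factors other than BCL11A lie above the line of equal level, the pluripotency genes other than KLF4 lie below it, and the ribosomal protein genes run close to it.

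The core of the stem cell network was almost silent at D16. POU5F1 had 3.597, 5.55 and 4.89 CPM in the WT D16 libraries, against 707, 662 and 719.6 CPM in the WT D0 libraries. POU5F1 is the OCT4 factor without which the pluripotent state is lost. All 3 D16 libraries held less than a single D0 library (log2 change -7.18, SE 0.19, adjusted p = 4.31e-10). NANOG had 1.98, 2.02 and 2.82 CPM in the WT D16 libraries, against 279, 242 and 234 CPM in the WT D0 libraries. SOX2 had 0.372, 0 and 0.222 CPM in the WT D16 libraries, against 232, 245 and 223 CPM in the WT D0 libraries. NANOG and SOX2, the partners of OCT4 on its target genes, changed by -6.77 (SE 0.19) and -10.41 (SE 0.33) on the log2 scale. Of 31 pluripotency genes listed, 29 could be tested: 28 were lower at D16, 1 was higher, and the median change was -6.61, or -6.22 with genes at 0 set to their bound. Summed over the list, the level was 222 to 352 CPM in the D16 libraries, against 9219 to 9732 CPM in the D0 libraries. TDGF1, the nodal co-receptor also called CRIPTO, had 2 counts over the D16 libraries and 25393 over the D0 libraries, a ratio of 12494 with a 95% counting interval of 3458 to 103170. NODAL, the ligand of this pathway, had no D16 count and was at least 1186-fold lower, and PRDM14, a repressor that guards the naive and germ cell programs, at least 1094-fold lower. VRTN had 1 D16 count and 8634 D0 counts. ZSCAN10, a zinc finger partner of OCT4 and SOX2 in mouse stem cells, had the lowest log2 change of the called genes with more than 3 counts in each group and at least 10 CPM at D0, with 0.0915 ± 0.08001 CPM at D16 and 242 ± 31.7 CPM at D0 (-11.02, SE 0.29). KLF4, a reprogramming factor that is also made in myeloid cells, was the member that was higher, with 47.2 ± 17.3 CPM at D16 and 8.06 ± 1.03 CPM at D0 (2.55, SE 0.27).

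**Figure D2:**
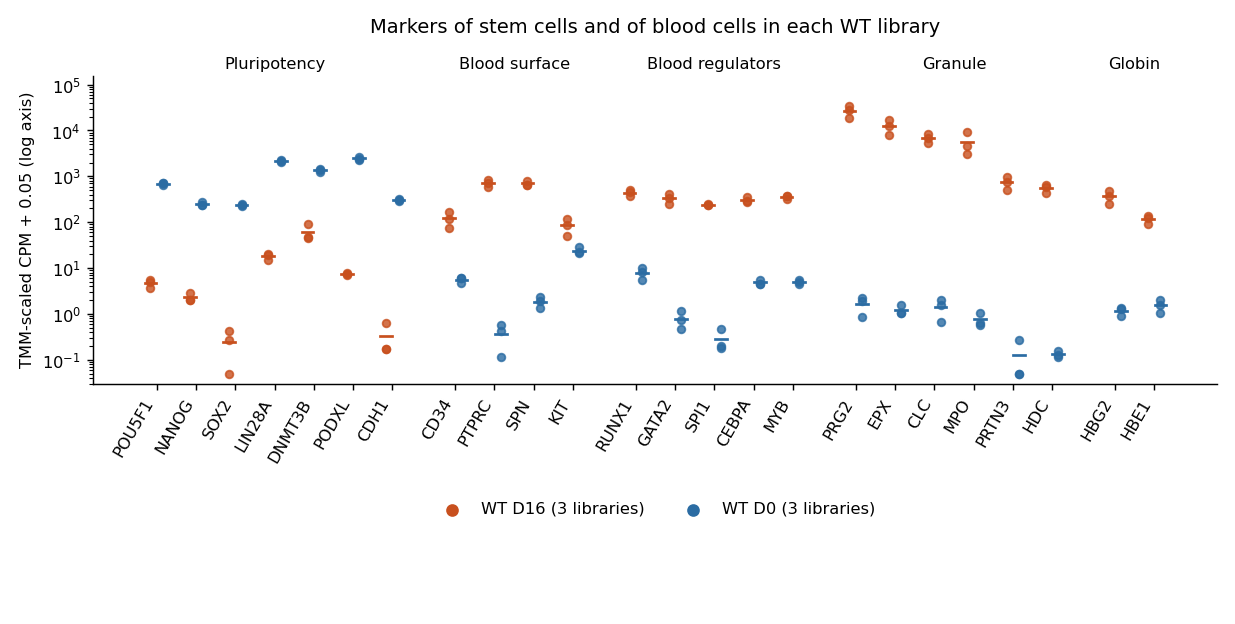
CPM of 24 marker genes in each WT library, on a log axis after adding 0.05. Orange points are the 3 D16 libraries, blue points the 3 D0 libraries, and short bars their means. No gene shown overlaps between days, and the gap is narrowest for KIT, at 51.2 to 119 CPM in D16 libraries and 21.6 to 28.3 CPM in D0 libraries.

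Genes that hold stem cells together as an epithelium, and the signals they exchange, fell with the network. Of 32 epithelial adhesion genes, 29 were lower, none was higher and 3 were not called (median -4.66). CDH1, the E-cadherin of their junctions, had 0.281 ± 0.2703 CPM at D16 and 310.2 ± 17.5 CPM at D0 (-10.00, SE 0.30). ESRP1, a splicing factor of epithelial transcripts, changed by -10.16 (SE 0.24) and CLDN6, a claudin of tight junctions, by -8.75 (SE 0.19). EPCAM had 14.1, 11.6 and 11.8 CPM in the WT D16 libraries, against 215, 199.6 and 194 CPM in the WT D0 libraries. EPCAM, an adhesion protein used to sort stem cells, was therefore lower without being lost. PODXL had 7.57, 7.19 and 7.64 CPM in the WT D16 libraries, against 2286, 2448 and 2622 CPM in the WT D0 libraries. PODXL encodes podocalyxin, which carries the TRA-1 antigens of stem cells. CD24, a surface protein of many epithelial and blood cells, was not called, at 1152 ± 157 CPM at D16 and 922 ± 171 CPM at D0. GJA1, the connexin of gap junctions between stem cells, had 1.44 ± 0.4698 CPM at D16 and 1815 ± 338 CPM at D0. Of 38 nodal, FGF and Wnt genes, 30 were lower, none was higher and 8 were not called (median -4.28). CER1, a secreted nodal antagonist, changed by -10.45 (SE 0.30) and FGF2, the growth factor that maintains human stem cells, by -8.52 (SE 0.29). SFRP2, a secreted Wnt antagonist, had no D16 count and was at least 379-fold lower.

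Markers of other tissues were mostly lower at D16. All 11 neural ectoderm genes tested of 16 were lower (median -6.23), and their summed level was 2.36 to 3.11 CPM at D16, against 378 to 391 CPM at D0. OTX2 and ZIC2, factors of the anterior neural plate that primed stem cells also make, were at least 764-fold and 539-fold lower. Of 16 endoderm and primitive streak genes tested, 14 were lower and 2 higher (median -6.76, or -6.27 with genes at 0 at their bound). EOMES, a streak factor, had 1 count at D16 and 1338 at D0. The higher pair were HHEX, a homeobox factor of endoderm and blood progenitors (32.95 ± 4.69 CPM at D16 and 2.21 ± 0.399 CPM at D0), and CXCR4, the chemokine receptor that also keeps blood progenitors in the marrow (112 ± 9.699 CPM at D16 and 26.01 ± 5.04 CPM at D0). Of 22 mesenchymal stroma genes tested, 17 were lower and 1 was higher (median -3.49). THY1 changed by -9.28 (SE 0.28), and TAGLN, an actin-binding protein of smooth muscle, by -8.52 (SE 0.25). COL1A1, the main collagen chain of stroma, had 0.784 ± 0.223 CPM at D16 and 85.2 ± 45.4 CPM at D0. LUM, a collagen-binding proteoglycan, was the 1 member that was higher, at 50.8 ± 15.8 CPM at D16 and 0.873 ± 0.293 CPM at D0. The stroma list summed to 278 to 307 CPM at D16, against 4038 to 4800 CPM at D0.

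LIN28A, an RNA-binding protein that blocks maturation of the let-7 miRNAs in stem cells, was lower in each D16 library. LIN28A had 19.5, 20.6 and 15.1 CPM in the WT D16 libraries, against 2308, 2199 and 2087 CPM in the WT D0 libraries. The groups were far apart (log2 change -6.90, SE 0.19, adjusted p = 5.21e-10). Of 16 genes of the LIN28 and let-7 axis, 10 were lower, 1 was higher and 5 were not called (median -1.14). TRIM71, a ubiquitin ligase and let-7 target, had 52.9 ± 18.7 CPM at D16 and 1059.6 ± 37.998 CPM at D0. HMGA2, a chromatin protein and let-7 target, had 34.4 ± 18.3 CPM at D16 and 301 ± 17.5 CPM at D0, and D16 library 3, at 55.3 CPM, was above the others at 21.0 and 27.1 CPM. MYCN changed by -2.93 (SE 0.24). IGF2BP1, an mRNA-binding protein of fetal cells, was not called, at 406 ± 42.7 CPM at D16 and 591 ± 81.1 CPM at D0 (-0.54, SE 0.15). E2F2, an S phase factor, was the member that was higher, at 38.4 ± 5.51 CPM at D16 and 5.97 ± 1.92 CPM at D0.

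Most transcription factors of blood formation were higher at D16. Of 32 listed, 29 were higher, 1 was lower and 2 were not called, and the median change was 5.98, beside -0.02 over all genes. RUNX1 had 497, 464 and 373 CPM in the WT D16 libraries, against 5.48, 8.05 and 10.1 CPM in the WT D0 libraries. RUNX1 is the factor that drives the step from endothelium to blood, and its libraries stood far apart between days (log2 change 5.83, SE 0.23, adjusted p = 3.82e-09). GATA2 had 419, 336 and 253 CPM in the WT D16 libraries, against 0.685, 1.12 and 0.411 CPM in the WT D0 libraries. GATA2 serves stem and progenitor cells, mast cells and basophils (log2 change 8.73, SE 0.31, adjusted p = 1.88e-09). SPI1 had 236, 232 and 251 CPM in the WT D16 libraries, against 0.152, 0.132 and 0.411 CPM in the WT D0 libraries. SPI1 is the main factor of myeloid cells, and its 3 D16 libraries lay close together (10.08, SE 0.24). GATA1, the factor of red cells, platelets, mast cells and eosinophils, had 128, 124 and 117 CPM in D16 libraries, against no count in D0 libraries, so it was at least 1548-fold higher. TAL1, which works with GATA factors, had 4459 counts over D16 and 2 over D0, a ratio of 2266 with a 95% counting interval of 627 to 18715. CEBPE, a factor of late granulocyte and eosinophil maturation, had 3845 and 3 counts, a ratio of 1302 with a 95% counting interval of 445 to 6319. CEBPA, which opens the granulocyte program, had 303 ± 41.4 CPM at D16 and 4.85 ± 0.613 CPM at D0 (5.98, SE 0.18). MYB, a factor of dividing progenitors, had 356 ± 28.6 CPM at D16 and 4.94 ± 0.444 CPM at D0 (6.16, SE 0.16). BCL11A, which silences fetal globin in adult red cells and is also made in stem cells, was the 1 factor lower at D16, at 26.5 ± 8.98 CPM at D16 and 89.7 ± 16.98 CPM at D0. CBFB, the partner of RUNX1, had 73.2 ± 8.71 CPM at D16 and 43.4 ± 3.86 CPM at D0 and was not called.

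The HOX clusters, whose genes are read in order along the body axis and in definitive blood progenitors, differed from each other. None of 11 HOXA genes had enough counts to be tested, and their summed level was 1.98 to 4.97 CPM in D16 libraries, against 1.03 to 2.44 CPM in D0 libraries. Of 10 HOXB genes, 8 could be tested and all 8 were higher (median 5.91, or 5.52 with genes at 0 at their bound). HOXB9 had 44.9, 51.4 and 63.04 CPM in the WT D16 libraries, against 0.152, 0.132 and 0.514 CPM in the WT D0 libraries. HOXB9 is a posterior gene of the cluster, and the cluster summed to 91.8 to 121 CPM at D16, against 1.75 to 2.24 CPM at D0. HOXB4, which expands blood progenitors when overexpressed, had 12.2 ± 1.38 CPM at D16 and 0.113 ± 0.136 CPM at D0.

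The surface markers by which the study defines its D16 progenitors, CD34 and CD45, were present. Their levels describe the population chosen and are no separate support for its identity. CD34 had 76.5, 115 and 171 CPM in the WT D16 libraries, against 4.72, 5.94 and 6.06 CPM in the WT D0 libraries. CD34, the adhesion protein of early progenitors and endothelium, was higher in all 3 D16 libraries (log2 change 4.44, SE 0.29, adjusted p = 1.69e-07). PTPRC had 732, 824 and 594 CPM in the WT D16 libraries, against 0.381, 0.06602 and 0.514 CPM in the WT D0 libraries. PTPRC, the CD45 phosphatase of all nucleated blood cells, was near 0 in each D0 library (log2 change 11.21, SE 0.33, adjusted p = 7.01e-10). SPN had 811, 657 and 659 CPM in the WT D16 libraries, against 1.29, 1.91 and 2.26 CPM in the WT D0 libraries. SPN encodes CD43, which marks the first blood cells from stem cell cultures. All 32 pan-leukocyte genes were tested and higher (median 9.14). SRGN, the proteoglycan that packs granule contents, had 2272 ± 229 CPM at D16 and 0.206 ± 0.179 CPM at D0 (13.51, SE 0.31). CD33, a myeloid lectin, had 33.5 ± 4.35 CPM at D16 and 0.146 ± 0.153 CPM at D0. Of 12 progenitor surface genes, 10 were higher and 2 lower (median 2.69). KIT had 51.2, 119 and 87.4 CPM in the WT D16 libraries, against 28.3, 22.1 and 21.6 CPM in the WT D0 libraries. KIT, the receptor of stem cell factor, was made in stem cells too, and its change was 1.84 (SE 0.26). FLT3, a receptor of early lymphoid and myeloid progenitors, had 26.3 ± 9.16 CPM at D16 and 0.776 ± 0.159 CPM at D0. PROM1 (CD133), a marker of early blood stem cells that human embryonic stem cells also carry, had no D16 count and was at least 920.0-fold lower. THY1 (CD90), a marker of the most primitive blood stem cells, had 0.373 ± 0.326 CPM at D16 and 254 ± 4.74 CPM at D0. The 2 lower members are markers of the earliest blood stem cells and also of D0 cells.

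Most receptors of blood cytokines were also higher at D16. Of 27 listed, 25 were higher, 1 was lower and 1 was not called (median 5.08). CSF2RB had 2098, 1438 and 1038 CPM in the WT D16 libraries, against 0.305, 0.3301 and 0.411 CPM in the WT D0 libraries. CSF2RB is the chain shared by the IL-3, IL-5 and GM-CSF receptors, and D16 library 1 was the highest and library 3 the lowest of the D16 libraries. IL3RA, the IL-3 binding chain, had no D0 count and was at least 1384-fold higher. IL5RA, the IL-5 binding chain found on eosinophils and basophils, had 11235 counts over D16 and 2 over D0, a ratio of 5709 with a 95% counting interval of 1580.0 to 47145. LIFR, the receptor of the cytokine LIF, was the 1 member lower, at 7.76 ± 1.67 CPM at D16 and 107 ± 18.4 CPM at D0. IL4R was not called, at 106 ± 12.7 CPM at D16 and 59.95 ± 2.24 CPM at D0 (0.82, SE 0.13).

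Genes of eosinophil granules were the most abundant specific product of the D16 cells. On the length-corrected scale, PRG2 (major basic protein) was the first of all genes at D16, with 25780 ± 8389 TPM at D16 and 2.19 ± 0.893 TPM at D0 (SD, n = 3 libraries each, as in all values with ±). CLC, the Charcot-Leyden crystal protein, was second, with 21073 ± 5243 TPM at D16 and 6.22 ± 3.38 TPM at D0. PRG2 had 34580, 27298 and 18627 CPM in the WT D16 libraries, against 1.83, 0.792 and 2.16 CPM in the WT D0 libraries. This 1 gene took 1.72 to 3.08% of the counts of a D16 library (log2 change 14.09, SE 0.46, adjusted p = 1.05e-09). EPX had 16915, 12640 and 7798 CPM in the WT D16 libraries, against 0.99, 0.9903 and 1.54 CPM in the WT D0 libraries. EPX is the peroxidase of eosinophils (log2 change 13.40, SE 0.44, adjusted p = 1.10e-09). PRG3, a homolog of major basic protein, had 4069 ± 1306 CPM at D16 and 0.282 ± 0.194 CPM at D0 (13.73, SE 0.46). RNASE2, the eosinophil-derived neurotoxin, had 26325 counts over D16 and 2 over D0, a ratio of 13376 with a 95% counting interval of 3703 to 110460. ADGRE1, a surface receptor of human eosinophils, had no D0 count and was at least 1359-fold higher. All 14 eosinophil genes were tested and higher, with a median of 12.21, or 11.30 with genes at 0 set to their bound.

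Azurophil granule genes of neutrophils were also switched on, and their list had the opposite order of D16 libraries to the eosinophil list. MPO had 3143, 4648 and 9280.5 CPM in the WT D16 libraries, against 0.533, 0.594 and 1.03 CPM in the WT D0 libraries. MPO is the peroxidase of the azurophil granules that promyelocytes make (log2 change 12.99, SE 0.57, adjusted p = 7.41e-09). PRTN3 had 517, 769 and 975 CPM in the WT D16 libraries, against 0.228, 0 and 0 CPM in the WT D0 libraries. PRTN3, the proteinase 3 of the same granules, had 29500 counts over D16 and 3 over D0, a ratio of 9993 with a 95% counting interval of 3419 to 48460. ELANE and LYZ, chosen after their values were seen, encode neutrophil elastase and lysozyme. ELANE had 53.96, 83.4 and 160.3 CPM in the WT D16 libraries, against 0.0762, 0 and 0 CPM in the WT D0 libraries. LYZ had 406, 671 and 1141 CPM in the WT D16 libraries, against 6.63, 7.59 and 10.9 CPM in the WT D0 libraries. Of 14 azurophil granule genes, 13 were higher and 1 was not called (median 11.57, or 10.23 with genes at 0 at their bound). That one was CTSC, the protease that activates granule enzymes, at 545 ± 24.1 CPM at D16 and 279 ± 39.6 CPM at D0 (0.97, SE 0.14). Without D0 library 1 or D16 library 1 it passed 2-fold and was called higher (1.08 or 1.01). The azurophil list summed to 8821, 11130 and 16850 CPM in D16 libraries 1, 2 and 3, whereas the eosinophil list summed to 66750, 53220 and 35490 CPM in the same libraries. The library with the most eosinophil message had the least azurophil message. At D0 the sums were 481 to 598 CPM for the azurophil list and 5.41 to 7.40 CPM for the eosinophil list.

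Later neutrophil genes and those of other myeloid cells rose as well. Of 25 late granule and surface genes of neutrophils, 21 could be tested, 20 were higher and 1 was not called (median 8.36, or 6.89 with genes at 0 at their bound). This list did not share the order of the azurophil list, with sums of 2109, 2708 and 2444 CPM in D16 libraries 1, 2 and 3, against 38.5, 37.2 and 40.5 CPM in D0 libraries 1, 2 and 3. S100A9 and S100A8, the calprotectin subunits, had 905 ± 147 CPM at D16 and 0.173 ± 0.0826 CPM at D0 and 474 ± 69.99 CPM at D16 and 0.167 ± 0.0879 CPM at D0. CD177, a surface protein of mature neutrophils, was not called, at 16.2 ± 6.62 CPM at D16 and 27.9 ± 3.25 CPM at D0, though without D16 library 2 it was called lower (-1.01). All 17 mast cell and basophil genes tested of 19 were higher (median 9.90, or 8.82 with genes at 0 at their bound). HDC, which makes histamine, had 20524 counts over D16 and 3 over D0, a ratio of 6952 with a 95% counting interval of 2379 to 33716. CPA3 had 182, 365 and 221 CPM in the WT D16 libraries, against 0, 0.06602 and 0 CPM in the WT D0 libraries. CPA3 is the carboxypeptidase of mast cell granules. MS4A3, a membrane protein of granulocyte precursors and basophils, had 13646 counts over D16 and 1 over D0. Of 27 monocyte and macrophage genes tested, 25 were higher and 2 lower (median 7.23). FCGR2A, an activating receptor for antibody, had 502 ± 79.5 CPM at D16 and 0.1202 ± 0.115 CPM at D0. FCGR2B, the inhibitory one, had 18491 counts over D16 and 1 over D0, but its sequence is nearly shared with FCGR2A and FCGR2C, so the split among them is uncertain. C1QA, a complement subunit of macrophages, had no D0 count and was at least 261-fold higher. VCAN, a matrix proteoglycan, was lower at 618 ± 178 CPM at D16 and 1301 ± 172 CPM at D0, and LGMN, a lysosomal protease, at 5.702 ± 3.23 CPM at D16 and 38.5 ± 2.68 CPM at D0. Without D0 library 1 or D16 library 1 the change of VCAN was -0.98 or -0.85, under 2-fold and not called.

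**Figure D3:**
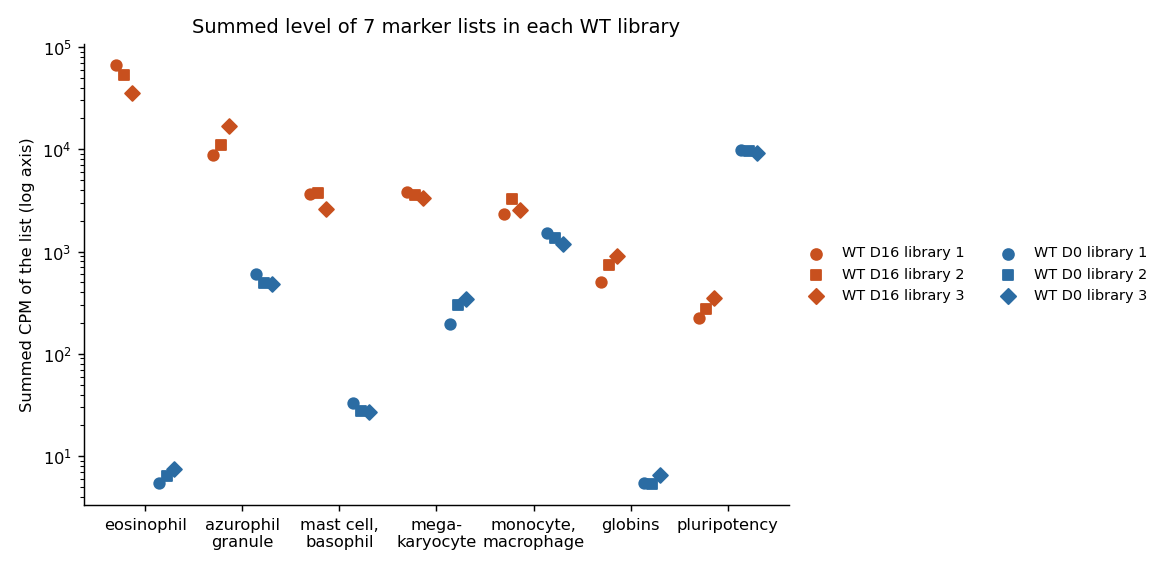
Summed CPM of 7 marker lists in each library, on a log axis, with D16 in orange, D0 in blue and the library number as the marker shape. Among D16 libraries, library 1 has the highest eosinophil sum and the lowest azurophil granule sum, and library 3 the lowest and the highest. The pluripotency sum is 222 to 352 CPM at D16, against 9219 to 9732 CPM at D0.

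Most red cell and platelet genes tested were also higher. Of 23 erythroid genes tested of 27, 20 were higher and 3 were not called (median 2.92). RHAG, an ammonia channel of the red cell membrane, had 1644 counts over D16 and 2 over D0, a ratio of 835 with a 95% counting interval of 231 to 6904, and ALAS2, which starts heme synthesis in red cells, had 14.3 ± 4.48 CPM at D16 and 0.3199 ± 0.145 CPM at D0. CA2, a carbonic anhydrase of red cells and bone cells, was not called, at 28.2 ± 3.795 CPM at D16 and 15.6 ± 3.19 CPM at D0 (0.85, SE 0.18), though without D0 library 1 it was called higher (1.02). All 8 globin genes tested of 10 were higher (median 6.41), though reads of near-identical globin copies could be split between them. HBG2 had 247, 374 and 487 CPM in the WT D16 libraries, against 0.838, 1.25 and 1.34 CPM in the WT D0 libraries. HBG2 is a fetal globin. HBE1, the embryonic one, had 119 ± 23.1 CPM at D16 and 1.49 ± 0.482 CPM at D0. HBD, a minor adult globin, had no D0 count and was at least 1395-fold higher. Their sum was 504 to 909 CPM at D16, against 5.28 to 6.48 CPM at D0. All 18 megakaryocyte and platelet genes tested were higher (median 7.74, or 6.97 with genes at 0 at their bound). ITGA2B had 561, 449.9 and 409 CPM in the WT D16 libraries, against 0.914, 1.78 and 1.34 CPM in the WT D0 libraries. ITGA2B, the CD41 integrin chain, thus had similar levels in the 3 D16 libraries. TUBB1, the tubulin of platelets, was at least 1014-fold higher and GP9, part of their von Willebrand factor receptor, at least 339-fold. PLEK, the pleckstrin of platelets and leukocytes, had 318 ± 23.9 CPM at D16 and 0.214 ± 0.0866 CPM at D0.

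Endothelial genes moved in both directions. Of 19 tested, 11 were higher, 3 were lower and 5 were not called (median 1.74). PECAM1 (CD31), shared by endothelium, platelets and leukocytes, had 311 ± 22.4 CPM at D16 and 0.129 ± 0.0249 CPM at D0 (11.10, SE 0.23). EGFL7, a secreted factor of vessels and blood progenitors, had 246 ± 25.3 CPM at D16 and 25.5 ± 3.97 CPM at D0. The lower members were receptors of vessel growth factors: TEK at 2.08 ± 0.573 CPM at D16 and 50.5 ± 5.003 CPM at D0, FLT1 at 30.6 ± 4.86 CPM at D16 and 201 ± 12.4 CPM at D0 and KDR at 49.996 ± 10.1 CPM at D16 and 111 ± 37.6 CPM at D0. Without D0 library 1 or D16 library 1 the change of KDR was -0.85 or -0.98 and not called. Only 13 of 30 lymphoid genes had enough counts to be tested, and of these 8 were higher, 4 lower and 1 not called (median 2.87). NKG7, a granule membrane protein of killer cells, had 3971 counts over D16 and 1 over D0. LCK, a kinase of T cells that stem cells also make, was lower at 0.109 ± 0.1297 CPM at D16 and 29.4 ± 1.55 CPM at D0.

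Proteins that myeloid cells use against microbes and in allergy were higher. Of 8 NADPH oxidase genes, 7 were higher and 1 was not called (median 8.04). CYBB, the catalytic subunit, had 364 ± 15.1 CPM at D16 and 0.608 ± 0.271 CPM at D0, and NCF4, a cytosolic subunit, had 10708 counts over D16 and 1 over D0. RAC1, the widely used GTPase of the complex, was not called, at 154 ± 32.3 CPM at D16 and 208 ± 5.05 CPM at D0, whereas RAC2, its blood cell form, had 674 ± 148 CPM at D16 and 2.03 ± 0.184 CPM at D0. Of 20 lipid mediator genes, 17 were higher, 1 was lower and 2 were not called (median 6.71). HPGDS, which makes prostaglandin D2, had 2329 counts over D16 and 1 over D0, and ALOX5AP, which hands arachidonate to the leukotriene pathway, had 4217 and 2. CYSLTR1, a leukotriene receptor, was not called, at 96.7 ± 15.6 CPM at D16 and 53.4 ± 4.45 CPM at D0. Of 28 innate sensor and cytokine genes tested, 25 were higher and 3 were not called (median 7.22). OSM, the cytokine oncostatin M, had 7621 counts over D16 and 2 over D0, and CD69, an early activation marker, had 13586 and 3. Of 29 lysosomal genes tested, 23 were higher, 1 was lower and 5 were not called (median 2.06). CTSG, a granule protease, had 4762 counts over D16 and 1 over D0, and CTSV, a cathepsin of epithelia, was the lower one, at 0.782 ± 0.356 CPM at D16 and 96.1 ± 3.06 CPM at D0.

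Antigen presentation could be read only in part, since 11 of 24 genes had enough counts to be tested, of which 8 were higher, 2 lower and 1 not called (median 3.68). B2M had 737, 869.5 and 668 CPM in the WT D16 libraries, against 21.7, 12.1 and 8.53 CPM in the WT D0 libraries. B2M is the light chain of class I molecules (log2 change 5.74, SE 0.32, adjusted p = 4.16e-08). HLA-E, a non-classical heavy chain, was higher, at 53.5 ± 18.2 CPM at D16 and 2.85 ± 1.75 CPM at D0. HLA genes vary between people and have near-identical copies, so their counts against 1 reference transcriptome are uncertain. Of the protein-coding genes that start between 28.5 and 33.5 Mb of chromosome 6 (GRCh38), where these genes lie, 17.37% had no count in any of the 18 libraries, against 6.23% of the other protein-coding genes. Of 25 interferon-stimulated genes tested, 17 were higher, 2 lower and 6 not called (median 1.63). IFI16, a DNA sensor, had 112 ± 25.1 CPM at D16 and 2.35 ± 0.606 CPM at D0. IFITM3, a membrane protein that blocks virus entry, was lower, at 20.1 ± 4.98 CPM at D16 and 78.3 ± 6.62 CPM at D0.

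Most cell cycle genes were not called. Of 31 DNA replication genes, 25 were not called, 5 were lower and 1 was higher (median -0.37). Of 31 mitosis genes, 27 were not called, 3 were lower and 1 was higher (median -0.08). MKI67 had 721, 748 and 755 CPM in the WT D16 libraries, against 195, 218 and 228 CPM in the WT D0 libraries. MKI67, the Ki-67 protein that coats mitotic chromosomes, was the 1 mitosis gene higher (1.79, SE 0.13). CDC20, an activator of the anaphase-promoting complex, was lower, at 62.2 ± 11.7 CPM at D16 and 181 ± 11.4 CPM at D0, and CCNE1, the cyclin of S phase entry, at 12.9 ± 3.999 CPM at D16 and 37.6 ± 2.35 CPM at D0. MCM4, a helicase subunit, was not called, at 251 ± 67.97 CPM at D16 and 413 ± 17.8 CPM at D0 (-0.72, SE 0.18). The D cyclins, which start the cycle, differed. CCND1 had 12.7, 8.96 and 10.98 CPM in the WT D16 libraries, against 422, 384 and 411 CPM in the WT D0 libraries. CCND3 had 353, 284 and 277 CPM in the WT D16 libraries, against 16.6, 15.5 and 19.9 CPM in the WT D0 libraries. CCND1 was lower (-5.24, SE 0.17) and CCND3 was higher (4.14, SE 0.16), while CCND2, at 717 ± 119.9 CPM at D16 and 531 ± 54.7 CPM at D0, was not called (0.43, SE 0.15). With the CDK inhibitors, 10 of 15 genes of this list were higher, 1 was lower and 4 were not called (median 1.41). CDKN2C, an inhibitor of CDK4 and CDK6, had 17.2 ± 2.32 CPM at D16 and 0.116 ± 0.0778 CPM at D0. Of 22 p53 target genes, 14 were not called, 6 were lower and 2 were higher (median -0.47). BTG2, an antiproliferative gene that is also an early response gene, was higher, at 842 ± 189 CPM at D16 and 10.7 ± 3.52 CPM at D0, and AEN, a nuclease of the p53 response, was lower, at 29.9 ± 11.8 CPM at D16 and 229 ± 14.4 CPM at D0. Of 17 BCL2 family genes, 6 were higher, 5 lower and 6 not called (median 0.56). BCL2 itself, which blocks cell death, had 72.9 ± 4.38 CPM at D16 and 9.09 ± 0.656 CPM at D0. BCL2A1, a blood cell relative, had no D0 count and was at least 436-fold higher. BOK, a death effector, was lower at 1.27 ± 0.457 CPM at D16 and 83.7 ± 13.8 CPM at D0.

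Genes of DNA methylation moved in both directions. DNMT3B had 44.8, 47.9 and 91.96 CPM in the WT D16 libraries, against 1353, 1426 and 1259 CPM in the WT D0 libraries. DNMT3B is the methyltransferase that sets new marks in stem cells, and D16 library 3 was the highest of the D16 libraries (-4.45, SE 0.28). TET1 had 19.5, 22.9 and 15.1 CPM in the WT D16 libraries, against 315, 340.1 and 321 CPM in the WT D0 libraries. TET2 had 509, 507 and 405 CPM in the WT D16 libraries, against 10.1, 9.31 and 8.63 CPM in the WT D0 libraries. TET1 and TET2 oxidise methylcytosine in stem cells and in blood cells. TET1 was lower (-4.08, SE 0.17) and TET2 higher (5.66, SE 0.17). Of 14 genes in this list, 4 were higher, 6 lower and 4 not called (median -0.61). The shares were 28.6% higher and 42.9% lower, beside 24.3% and 26.2% of all genes tested. DNMT3L, the catalytically inactive partner, had 1 count over D16 and 345 over D0. MBD2, which reads the mark, had 39.4 ± 0.477 CPM at D16 and 13.02 ± 1.44 CPM at D0, a call that was lost with the deposited transcript lengths as offsets (0.17, adjusted p = 0.431 by edgeR).

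Most genes that make and trim miRNAs were not called. Of 29 tested of 30, 21 were not called, 4 were higher and 4 lower (median -0.23). USB1 had 60.9, 50.3 and 59.9 CPM in the WT D16 libraries, against 72.8, 79.4 and 84.9 CPM in the WT D0 libraries. USB1, the exonuclease that the series is about, was not called (log2 change -0.47, SE 0.13, adjusted p = 0.00684), as its change stayed under 2-fold. Its level was nevertheless lower in every D16 library than in any D0 library. The study describes USB1 levels as increased in progenitors and mature blood cells, which these D16 libraries do not show. DGCR8, the RNA-binding partner of the Drosha nuclease, was lower, at 34.4 ± 5.81 CPM at D16 and 102 ± 10.7 CPM at D0, and XPO5, which exports precursor miRNAs, at 68.3 ± 12.6 CPM at D16 and 183 ± 5.12 CPM at D0. Among Argonautes, AGO4 was higher, at 103 ± 18.1 CPM at D16 and 18.5 ± 0.144 CPM at D0, AGO1 lower, at 108 ± 5.63 CPM at D16 and 242 ± 24.9 CPM at D0, and AGO2 not called, at 214 ± 12.1 CPM at D16 and 327 ± 46.1 CPM at D0 (-0.61, SE 0.14). TENT2, a poly(A) polymerase of miRNAs and mRNAs, was higher, at 94.6 ± 11.5 CPM at D16 and 30.96 ± 4.82 CPM at D0, as was TUT7, a uridyltransferase of let-7 precursors, at 123 ± 16.4 CPM at D16 and 32.9 ± 2.69 CPM at D0.

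Of genes with housekeeping functions, those of ribosomes and oxidative phosphorylation were mostly not called. The share called in the glycolysis list was near the 50.6% of all genes tested, and that in the heme and iron list was higher. Of 75 ribosomal protein genes tested, 73 were not called and 2 were higher (median 0.53). Of 41 oxidative phosphorylation genes, 33 were not called and 8 were higher (median 0.43). Of 25 glycolysis genes, 11 were higher, 3 lower and 11 not called (median 0.60). HK3, a hexokinase of myeloid cells, had 116 ± 32.8 CPM at D16 and 0.116 ± 0.0778 CPM at D0. The lactate transporters changed in opposite directions, with 486 ± 29.8 CPM at D16 and 15.1 ± 0.653 CPM at D0 for SLC16A3 and 73.3 ± 20.5 CPM at D16 and 506 ± 79.9 CPM at D0 for SLC16A1. SLC2A1, the glucose carrier GLUT1, was lower, at 123 ± 28.3 CPM at D16 and 617 ± 105 CPM at D0. Of 25 heme and iron genes, 14 were higher, 3 lower and 8 not called (median 1.5). SLC40A1 had 300.4, 381 and 328 CPM in the WT D16 libraries, against 6.397, 5.22 and 4.21 CPM in the WT D0 libraries. SLC40A1 is ferroportin, the iron exporter of red cell precursors and macrophages. FTL, the light chain of the iron store ferritin, had 11698 ± 1954 TPM at D16 and 2959 ± 60.9 TPM at D0. FLVCR1, a heme exporter, was lower, at 41.6 ± 1.53 CPM at D16 and 149 ± 1.08 CPM at D0.

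Immediate early genes, which respond first to growth factors and stress, were higher. Of 20 tested, 17 were higher and 3 were not called (median 4.53). FOS had 1631, 2058 and 1406 CPM in the WT D16 libraries, against 20.9, 6.998 and 6.37 CPM in the WT D0 libraries. FOS, named after its values were seen, is a subunit of the AP-1 factor. FOSB had 445, 632 and 479.6 CPM in the WT D16 libraries, against 3.35, 0.726 and 0.925 CPM in the WT D0 libraries. D0 library 1 was the highest D0 library for both. EGR2, a zinc finger factor of this class and of macrophages, had 191 ± 34.2 CPM at D16 and 0.434 ± 0.314 CPM at D0. Integrins, the matrix and cell adhesion receptors, moved in both directions, with 9 of 21 higher, 9 lower and 3 not called (median -0.11). The share was 42.9% in each direction, beside 24.3% higher and 26.2% lower of all genes tested. ITGB2, the chain shared by leukocyte integrins, had 477 ± 152 CPM at D16 and 0.494 ± 0.103 CPM at D0 and ITGAL, its partner, 199 ± 40.8 CPM at D16 and 0.264 ± 0.09699 CPM at D0. ITGB5, a vitronectin receptor chain, was lower, at 10.5 ± 3.102 CPM at D16 and 570.2 ± 66.7 CPM at D0, as was ITGA6, a laminin receptor chain, at 14.4 ± 0.7699 CPM at D16 and 221 ± 27.5 CPM at D0. Of 15 imprinted genes tested, 4 were higher, 6 lower and 5 not called (median -0.46). PEG10, a retrotransposon-derived gene, had 2.58 ± 1.21 CPM at D16 and 149 ± 21.8 CPM at D0, and PLAGL1, a zinc finger growth regulator, had 83.6 ± 8.99 CPM at D16 and 2.21 ± 0.579 CPM at D0.

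**Figure D4:**
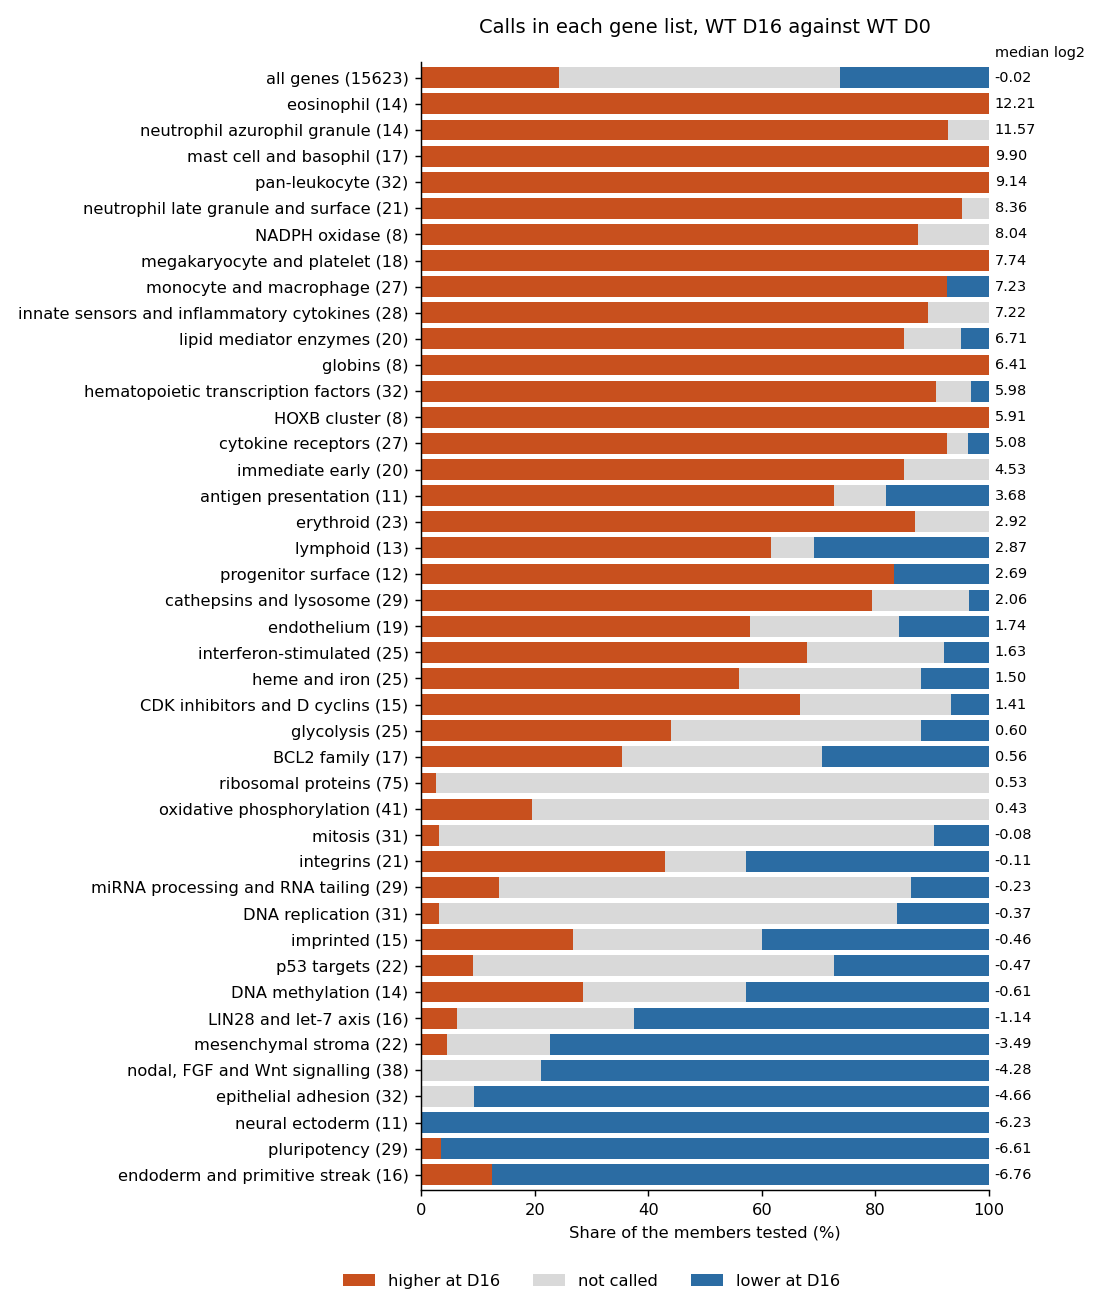
Share of the tested members of each gene list that were called higher (orange), not called (grey) or called lower (blue) at D16 against D0, with the number tested in brackets and the median log2 change at the right. The top row gives all 15623 genes tested, where 24.3% were higher and 26.2% lower.

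By TPM, the most abundant transcripts other than those of the eosinophil list were mostly housekeeping ones on both days. The 10 highest genes by TPM at D16 were PRG2, CLC, RNA5-8SP6, FTL, EEF1A1, MT-ND4L, PRG3, H4C11, MT-CO1 and RPS27, and those at D0 were RNA5-8SP6, EEF1A1, MT-ND4L, RPS27, ACTG1, H4C11, RPS2, MT-CO3, MT-ND4 and RPL41. RNA5-8SP6 is a short pseudogene of an rRNA, and its 16113 ± 5996 TPM at D16 and 45691 ± 692 TPM at D0 rested on 56.5 ± 24.2 CPM at D16 and 105 ± 6.79 CPM at D0. EEF1A1, the elongation factor that carries tRNA to ribosomes, had 9768 ± 402 TPM at D16 and 7671 ± 363 TPM at D0 and was not called (0.78, SE 0.16). MT-CO1, a subunit of the mitochondrial oxidase, was higher, at 8259 ± 1414 CPM at D16 and 3386 ± 259 CPM at D0 (1.29, SE 0.17). PLCG2, named after its values were seen, encodes a phospholipase of leukocyte signalling. PLCG2 had 14865, 12902 and 13593 CPM in the WT D16 libraries, against 1158, 739 and 1413 CPM in the WT D0 libraries. It was thus well read in stem cells too (log2 change 3.64, SE 0.25, adjusted p = 2.07e-07).

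Replicate libraries of a day lay close for most genes. Some genes of several kinds spread more at D16. Among genes tested with a symbol and a mean of at least 50 CPM at D16, INTS3 had the widest range, 8.35-fold. It had 95.1, 12.4 and 104 CPM in D16 libraries 1, 2 and 3. For the granule genes MPO, ELANE and LYZ the highest D16 library had 2.95, 2.97 and 2.81 times the level of the lowest. Among genes of at least 10 CPM, the median coefficient of variation over the 3 libraries was 12.3% at D16 (9981 genes) and 9.72% at D0 (10106 genes). The highest library was more than 2-fold above the lowest for 335 genes (3.36%) at D16 and for 199 (1.97%) at D0. At D16 library 3 was the highest for 161 of these and the lowest for 148, and library 1 the highest for 97 and the lowest for 136. At D0 library 3 was the highest for 167 and library 1 the lowest for 178.

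Promoters of genes that were off on 1 day and on at the other differed in base composition. RefSeq promoter windows of 300 bases, 250 before and 50 after the start (GRCh38.p14), matched 11723 of the 15579 genes tested with a symbol. Among genes of at least 50 CPM at D16 and under 3 CPM at D0, 199 had a window, with a median of 7 CpG dinucleotides, and 45.7% had fewer than 6. Among genes under 3 CPM at D16 and of at least 50 CPM at D0, 142 had a window, with a median of 22 CpG and 11.97% with fewer than 6. Over all 11723 genes the median was 25 and 9.32% had fewer than 6. These sets were chosen by the measured levels, so the values are a description. The windows of 4 genes are shown as examples. CLC, of the D16 set, and SOX2, of the D0 set, are shown with CpG in capitals, NANOG is shown the same way as a stem cell gene with few, and CPA3 shows the letters AGATAA, the core to which GATA factors bind, in capitals.

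CLC (chr19:39737980-39738279, minus strand): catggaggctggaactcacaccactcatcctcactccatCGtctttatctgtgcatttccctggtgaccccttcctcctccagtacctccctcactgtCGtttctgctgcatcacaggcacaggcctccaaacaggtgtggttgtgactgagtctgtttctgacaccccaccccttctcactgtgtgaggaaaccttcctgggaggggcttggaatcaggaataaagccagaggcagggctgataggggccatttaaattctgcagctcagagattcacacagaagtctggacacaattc
SOX2 (chr3:181711675-181711974, plus strand): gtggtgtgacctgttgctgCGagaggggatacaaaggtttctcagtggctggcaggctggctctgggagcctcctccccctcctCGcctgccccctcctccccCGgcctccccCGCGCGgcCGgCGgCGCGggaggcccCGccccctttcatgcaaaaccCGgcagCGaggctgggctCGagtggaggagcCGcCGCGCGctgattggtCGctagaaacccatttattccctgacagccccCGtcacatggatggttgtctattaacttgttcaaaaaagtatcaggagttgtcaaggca
NANOG (chr12:7789152-7789451, plus strand): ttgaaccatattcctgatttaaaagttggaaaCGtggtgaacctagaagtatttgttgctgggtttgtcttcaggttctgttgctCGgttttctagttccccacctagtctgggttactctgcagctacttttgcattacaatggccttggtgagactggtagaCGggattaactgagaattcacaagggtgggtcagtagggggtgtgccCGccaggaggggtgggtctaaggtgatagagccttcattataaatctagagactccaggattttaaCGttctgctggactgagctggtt
CPA3 (chr3:148865046-148865345, plus strand): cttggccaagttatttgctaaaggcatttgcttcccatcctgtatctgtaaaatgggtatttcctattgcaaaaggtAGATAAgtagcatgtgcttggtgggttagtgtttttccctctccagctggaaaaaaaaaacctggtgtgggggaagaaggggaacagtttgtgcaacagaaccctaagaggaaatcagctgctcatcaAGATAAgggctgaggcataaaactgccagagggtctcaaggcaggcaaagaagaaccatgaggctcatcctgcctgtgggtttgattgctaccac

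The windows held 2 CpG in CLC, 20 in SOX2, 5 in NANOG and 0 in CPA3. AGATAA, searched on both strands, was found 2 times in CPA3, whose level was 182, 365 and 221 CPM in D16 libraries. It was in 16.1% of the 199 windows of genes switched on, in 4.93% of the 142 windows of genes switched off, in 5.48% of the windows of all genes tested and in 10.5% of all 27305 windows in the table. The letters GAGGAA, the core bound by PU.1, were in 45.7%, 26.8%, 27.2% and 27.6% of the same sets. The other motifs searched were TGCAAAT, in 5.0%, 2.1%, 2.9% and 4.2%, and GGGCGG, in 39.2%, 65.5%, 67.9% and 44.6%. The sets also differed in median GC content, at 55.7%, 65.7%, 65.0% and 58.3%, and the matches were not corrected for it. A match of this kind is not a measured binding site.

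**Figure D5:**
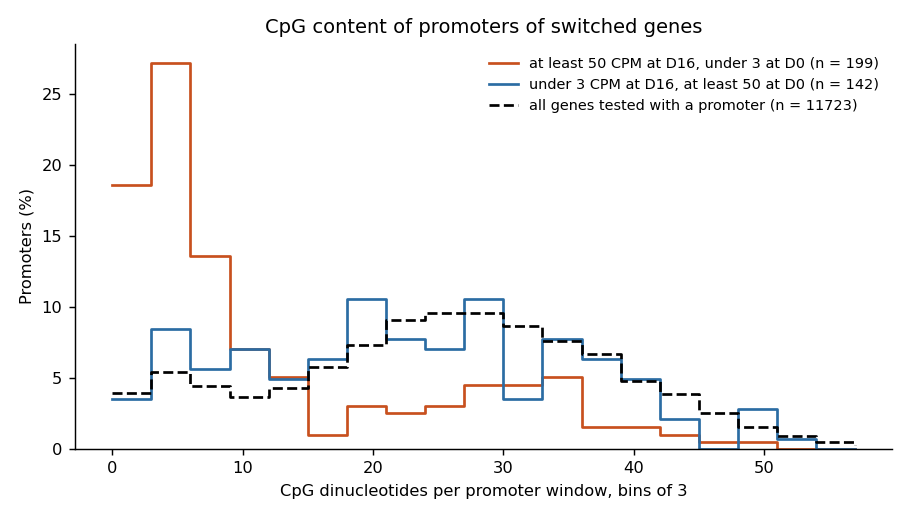
Share of promoter windows (vertical, %) by their number of CpG dinucleotides in bins of 3 (horizontal), for 199 genes switched on at D16 (orange), 142 switched off at D16 (blue) and all 11723 genes tested with a window (dashed). The orange line peaks at 3 to 5 CpG, and the blue line follows the dashed one, with medians of 7, 22 and 25 CpG.

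The transcript forms in use were compared through the mean effective transcript length that Salmon gives each gene. Of 9592 genes with at least 50 counts in each of the 6 libraries, 136 (1.42%) had a length ratio over 1.5 at an adjusted p under 0.1 by limma, 51 longer and 85 shorter at D16. TFPI had mean lengths of 3933, 3579.8 and 3257 bases in the WT D16 libraries, against 859, 774 and 717 bases in the WT D0 libraries (log2 ratio 2.20, SE 0.10, adjusted p = 0.0033). TFPI, the inhibitor of tissue factor in clotting, was not called by its counts (-0.86, SE 0.19), but was called lower without D0 library 1 (-1.05), with library size only (-1.14) and with the transcript lengths as offsets (-3.09), and its TPM, which divides by length, was 23.5 ± 1.16 at D16 and 276 ± 105 at D0. MBD2 had mean lengths of 2783, 2982 and 2947 bases in the WT D16 libraries, against 1001, 1128 and 1186 bases in the WT D0 libraries (log2 ratio 1.40, SE 0.07, adjusted p = 0.0033). OSBPL10 had mean lengths of 6305, 6296 and 6299 bases in the WT D16 libraries, against 1779, 1417 and 1392 bases in the WT D0 libraries (log2 ratio 2.05, SE 0.10, adjusted p = 0.0033). OSBPL10 is a lipid-binding protein that was itself lower at D16 (-4.16, SE 0.17). STARD8 and WTIP were the others of the 5 with the largest increase, with log2 ratios of 1.72 and 1.53. ENTPD1 had mean lengths of 3571, 3009 and 2855 bases in the WT D16 libraries, against 10039, 8959 and 12214 bases in the WT D0 libraries (log2 ratio -1.72, SE 0.14, adjusted p = 0.0105). ENTPD1 (CD39) breaks down extracellular ATP on leukocytes and was higher at D16 (5.06, SE 0.20). RPS6KA5 had mean lengths of 3428, 4463 and 2957 bases in the WT D16 libraries, against 16824, 12366 and 8958 bases in the WT D0 libraries (log2 ratio -1.79, SE 0.28, adjusted p = 0.0439). RPS6KA5 is a kinase of histones and CREB, and its D0 libraries spread from 8958 to 16824 bases. Its call was lost without D0 library 2, D16 library 1 or D16 library 3 (adjusted p = 0.125, 0.121 and 0.113 by limma). ADGRV1, NAV3 and CYB5R4 also had shorter forms, with log2 ratios of -1.68, -1.57 and -1.53. The call of CYB5R4 was lost without D16 library 1 or 2 (adjusted p = 0.102 by limma each). With at least 200 counts in each library, 54 genes were called. Of the 136 genes, 55 had no called change in their counts. These lengths depend on the assignment of reads to annotated transcripts.

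The same step was taken by USB1 mutant cells, and the difference between the 2 changes was tested over 12 libraries, as the mutant change from D0 to D16 minus the WT change. Of 16211 genes tested, 2061 (12.7%) had a change that differed by genotype at an adjusted p under 0.1, of which 984 (6.07%) had the higher value in the mutant and 1077 (6.64%) the lower. The number depended on single libraries, with 1280 genes without WT D0 library 2, 1296 without USB1 mutant D0 library 3, 1343 without WT D16 library 1 and 3434 without WT D16 library 3. A fit over all 18 libraries gave 1281. Some markers of the WT step were called and others were not. POU5F1, CD34, PTPRC and USB1 were not called, with differences of -0.16, 0.50, -0.87 and -0.21, and standard errors of 0.22, 0.36, 0.70 and 0.16. CD34 was called without WT D16 library 3 (0.82). LIN28A, DNMT3B, CDH1 and EPCAM were called, with differences of 1.48, 0.94, 2.92 and -1.31, as were CEBPA (-0.84) and MYB (-0.79). PRG2 and EPX rose less in the mutant. Of 14 eosinophil genes, 6 had the lower value in the mutant, none had the higher and 8 were not called. PRG2 had 4579 ± 1104 CPM at D16 and 5.32 ± 4.58 CPM at D0 in mutant cells, against 26400 ± 7548 CPM at D16 and 1.61 ± 0.714 CPM at D0 in WT cells on the 18-library scale. EPX had 1522 ± 239 CPM at D16 and 2.54 ± 2.51 CPM at D0 in mutant cells, against 12242 ± 4339 CPM at D16 and 1.19 ± 0.313 CPM at D0 in WT cells on the 18-library scale. For PRG2 the difference was -4.40, SE 0.66, adjusted p = 0.00143, and for EPX -4.26, SE 0.69, adjusted p = 0.00229. The D0 values rest on few counts and were higher in the mutant. For MPO it was not called (-1.92, SE 0.89, adjusted p = 0.213). KIT had 268 ± 36.9 CPM at D16 and 10.9 ± 1.96 CPM at D0 in mutant cells, against 84.95 ± 34.4 CPM at D16 and 24.3 ± 3.897 CPM at D0 in WT cells on the 18-library scale. KIT thus had the greater change in the mutant (2.76, SE 0.35, adjusted p = 4.52e-04). Among genes with a symbol and a mean of at least 5 CPM, the smallest adjusted p in each direction was that of SFRP1, a secreted Wnt antagonist (2.34, SE 0.22, adjusted p = 1.11e-04), and CORO2A, an actin-binding coronin (-1.89, SE 0.17, adjusted p = 6.71e-05). CORO2A had 35.2 ± 2.71 CPM at D16 and 75.3 ± 2.69 CPM at D0 in mutant cells, against 116 ± 14.6 CPM at D16 and 68.7 ± 4.13 CPM at D0 in WT cells on the 18-library scale. SFRP1 had 11.6 ± 1.19 CPM at D16 and 46.6 ± 3.87 CPM at D0 in mutant cells, against 3.24 ± 0.952 CPM at D16 and 70.04 ± 4.07 CPM at D0 in WT cells on the 18-library scale. GPX3, a secreted peroxidase with the same adjusted p as CORO2A, had a difference of -2.44, and FST, an activin antagonist, of 2.67.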

How the data were processed

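RNA was depleted of rRNA, made into directional libraries and sequenced. Per the labels and the methods of the study, the authors trimmed reads with Trimmomatic 0.36, quantified them with Salmon 0.13.1 on Ensembl GRCh38 transcripts and summed transcripts to genes. The deposited tables hold, per gene and library, an expected count, a TPM and a mean effective transcript length. Whether the quantification used the strand is not given in the sources used here. For the tests, each deposited expected count was set to the nearest whole number, while TPM served for levels between genes. The 3 tables were joined by gene identifier, and 35051 of 35168 identifiers had a GENCODE symbol. The other 117 held 0.25% of the counts of the 6 WT libraries.

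Counts were tested with edgeR 4.0.16 (filterByExpr, TMM, glmQLFTest, Benjamini-Hochberg adjustment), lengths with limma 3.58.1 and R 4.3.3. DESeq2 1.42.0, the tool of the study, was an alternative. A gene with 0 counts in a group was given a bound from 3 counts over that group, and counting intervals are 95% and cover counting error only. Named genes were those of largest change, highest TPM or smallest counts, up to 4 called per list and direction and up to 2 not called, and a set of fixed markers, unless stated otherwise. The comparison, its lists and its named genes were chosen with earlier results of these data known. Settings varied were scaling, count filter, tool, fit, offsets and single libraries, as given at the end. Scripts were tested on simulated data. Some items are not reported here.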

Additional observations from a re-analysis of the deposited data

Results flagged for a closer look

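For 45 of 181 genes named in the text or its captions (24.9%, beside 12.7% of all genes tested), the change between days differed by genotype at an adjusted p under 0.1 by edgeR, tested over 12 libraries. Some of these genes were named for this difference, so the share is a description. The values are log2 differences, the change from D0 to D16 in USB1 mutant cells minus that in WT cells, and no cause was tested. Among the stem cell and signalling genes, which fell in WT cells, the value was positive for CDH1 (2.92), SFRP1 (2.34), LIN28A (1.48), HMGA2 (1.42), CLDN6 (1.34), MYCN (1.11), GJA1 (1.02), DNMT3B (0.94), CCND1 (0.87), TRIM71 (0.83) and CCNE1 (0.73), and negative for EPCAM (-1.31). Over the whole epithelial adhesion list, 7 genes had the higher value in the mutant, 4 the lower and 21 were not called. For the pluripotency list these numbers were 5, 1 and 23, and for the nodal, FGF and Wnt list 12, 0 and 26.

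Of 14 eosinophil genes 6 had a lower value in the mutant, of 14 azurophil granule genes 3 and of 22 late neutrophil genes 7, none had a higher one, and the others were not called. MPO (-1.92), PRTN3 (-2.74), S100A8 (-1.13) and ELANE (-1.07) were among those not called. The lowest values of the named genes that were called were those of PRG3 (-4.88), PRG2 (-4.40), EPX (-4.26), RNASE2 (-4.19), CD177 (-3.99), CLC (-3.80), SRGN (-3.13) and S100A9 (-2.45). All of these but CD177 were near 0 in WT D0 libraries, where PRG3 had 11 counts and PRG2 57. The sizes of their differences therefore rest on few D0 counts. Negative values were also found for GPX3 (-2.44), CA2 (-2.25), CORO2A (-1.89), PECAM1 (-1.81), FTL (-1.54), CD24 (-0.90), CEBPA (-0.84), EGFL7 (-0.83), MYB (-0.79), BCL2 (-0.67), AGO4 (-0.60), CCND2 (-0.60) and TUT7 (-0.54). Values were positive for KIT (2.76), FST (2.67), IFI16 (1.82), SLC40A1 (1.55), PLAGL1 (1.47), HHEX (1.38), TEK (1.26), LGMN (1.24), ITGB5 (1.10), IFITM3 (1.04), ITGA6 (0.84) and SLC16A1 (0.83).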

How the results depend on the processing

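The WT comparison called 6015 genes with at least 5 CPM in 3 libraries, 9787 with no count filter and 8962 with DESeq2, against 7900 as reported, and 7950 to 8363 with 1 library left out (3724 to 4020 higher, 4081 to 4421 lower). Scaling by library size only moved the median of all genes tested to -0.30 and upper-quartile scaling to -0.13, against -0.02, and under each of the 4 other scalings the median of every list with a tested gene kept its sign. As reported, 620 of 905 listed genes tested, 304 of 322 cell type markers and 252 of 321 genes of the naming rule were called. Over all genes tested the share called was 50.6%. With 1 library left out these numbers were 617 to 638, 304 to 311 and 251 to 254. The numbers of listed genes and markers tested changed as well. Of 3735 single-gene values under alternatives, 3692 stayed on their side of the threshold, 21 lost a call and 21 gained one, and ACTG1 turned to 0.067 without WT D16 library 3 (-0.36 to 0.067 with 1 library left out).

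The interaction called 1281 genes in a fit over 18 libraries (650 higher, 631 lower), against 2061, and 1280 to 3434 with 1 library left out (593 to 1802 higher, 665 to 1632 lower). Length calls, 136 as reported, were 54 with at least 200 counts (13 longer, 41 shorter), 37 at a ratio over 2 (10 longer, 27 shorter) and 104 to 151 with 1 library left out (37 to 63 longer, 60 to 88 shorter). Same-numbered libraries did not deviate together (correlations -0.209, 0.005 and -0.053 over 11405 genes). With a replicate block 7931 genes, 2485 interactions and 52 lengths (20 longer, 32 shorter) were called, the interaction of MPO gained a call (-1.62), and the length calls of STARD8, ENTPD1, NAV3, RPS6KA5 and CYB5R4 were lost (adjusted p = 0.101 to 0.128 by limma).

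D0 counts limit the folds of genes near 0 at D0, and genes with too few counts, among them the HOXA cluster and most lymphoid genes, could not be compared at this depth. The p-values measure the spread between libraries of 1 line, whether technical or biological.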
